A study of Mus musculus with 6 samples.

Results

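The genes described here carry glucose into the cell and through its central routes. They cover glucose transport, glycolysis, gluconeogenesis, the pentose phosphate pathway and a few genes that respond to low oxygen. They were picked by name from a list of 39 genes, and 34 of the 39 had a probe set assigned to that symbol alone, out of 22180 genes on the array. The other 5 are not analysed here: Gpi1, Eno1 and G6pdx had no probe set under these symbols in the annotation used, and Aldoa and Tkt only share probe sets with another symbol. Each gene was read at its brightest probe set. The list follows the textbook pathways, with the low-oxygen genes added, and was chosen with earlier results of these data known. Its 34 measured genes are called the glucose genes below.

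The cells were LSK cells, a lineage-negative, Sca-1-positive marrow fraction with high c-Kit that contains blood stem cells and multipotent progenitors. Cells came from 8-week-old male mice, 3 labelled WT and 3 labelled Ctcf conditional KO, each array a biological replicate. The knockout is tamoxifen-inducible. CTCF, the protein encoded by Ctcf, is a zinc finger protein that binds insulators and the anchors of chromatin loops. Every mouse was injected daily with tamoxifen (2 mg, for 3 days), and marrow was taken 24 hours after the last dose, so both groups carry the drug. The design text speaks of CreER mice beside the knockout, but no source used here says whether the WT mice carried the recombinase, or which exons were removed. A bulk array cannot tell fewer cells of a type from less RNA per cell.

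The 6 arrays had like distributions, with medians over all probe sets between 5.99 and 6.07 on the log2 scale, and correlated across genes at 0.979 to 0.989. Ctcf stood at 8.35, 8.59 and 8.73 in WT and at 7.58, 7.78 and 7.86 in the knockout, a log2 difference of -0.82 (SE 0.13, limma adjusted p = 0.104). Of 9 measured LSK marker genes Cd34 stood at 11.97 in WT, Flt3 at 11.37 and Kit at 10.38. Between the groups 7 of the 9 had a negative difference (median -0.04, and -0.02 to -0.16 with 1 array left out), and none passed. Flt3, a receptor of multipotent progenitors, differed by -0.42 (SE 0.16, limma adjusted p = 0.563) with overlapping groups. Kit differed by -0.22 (SE 0.13, limma adjusted p = 0.727). Gata2 at 0.34 (SE 0.10, limma adjusted p = 0.418) and Slamf1 at 0.33 (SE 0.11, limma adjusted p = 0.532) were positive. The groups of Kit, Gata2 and Slamf1 were separate. The summed level of the 9 was 10990 to 13260 in WT and 10100 to 11670 in the knockout, and its part in the results below was not tested. The arrays give no detection call, so a low level shows neither presence nor absence. Having 3 arrays a group limits precision.

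In glycolysis a glucose molecule is phosphorylated, split and oxidised to pyruvate, which becomes lactate or enters mitochondria through pyruvate dehydrogenase. Gluconeogenesis runs the other way and needs its own enzymes at the irreversible steps, among them fructose-1,6-bisphosphatase, which undoes the phosphofructokinase step. The pentose phosphate pathway branches off at glucose-6-phosphate and yields NADPH and ribose. Blood stem cells reside in poorly oxygenated marrow and are known for a strong reliance on glycolysis, held up by hypoxia-inducible factor and by pyruvate dehydrogenase kinases.

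The comparison of the design, knockout minus WT, was fitted with limma over all 22180 genes, and p-values were adjusted over all of them by the Benjamini-Hochberg method. At an adjusted p under 0.05 this called 16 genes, or 0.0721% of those tested (0.0271% higher and 0.0451% lower). Among the 34 glucose genes 1 was called, Fbp1, which rose 3.90-fold. No other glucose gene passed, and the remaining 33 differed by between -0.21 and 0.42 on the log2 scale, so Fbp1 lay outside the range of the other members.

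The promoters of Fbp1 and of its paralogue Fbp2 are shown because they lie next to each other in gene order on chromosome 13 and gave different results. Those of Ldha and Pgk1 are shown because they carry copies of the short core bound by hypoxia-inducible factor. Each is the 250 bases before a RefSeq start in build GRCm38.p6, written 5′ to 3′ on the gene's strand, and capitals mark the hypoxia response core ACGTG or GCGTG on either strand, which also covers the E-box CACGTG. The Fbp1 window is chr13:62888283-62888532 on the minus strand, that of Fbp2 chr13:62858401-62858650 on the minus strand, that of Ldha chr7:46845554-46845803 on the plus strand and that of Pgk1 chrX:106186850-106187099 on the plus strand.
Fbp1: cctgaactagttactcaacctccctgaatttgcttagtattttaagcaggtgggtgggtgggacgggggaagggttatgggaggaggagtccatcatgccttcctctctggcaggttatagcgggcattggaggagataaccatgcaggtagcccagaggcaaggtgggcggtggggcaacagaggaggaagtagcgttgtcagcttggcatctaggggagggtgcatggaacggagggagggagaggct
Fbp2: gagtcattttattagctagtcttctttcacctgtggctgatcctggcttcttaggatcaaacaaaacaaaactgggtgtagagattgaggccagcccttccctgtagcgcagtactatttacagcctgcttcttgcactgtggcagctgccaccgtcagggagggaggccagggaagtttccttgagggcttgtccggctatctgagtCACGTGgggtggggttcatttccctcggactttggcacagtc
Ldha: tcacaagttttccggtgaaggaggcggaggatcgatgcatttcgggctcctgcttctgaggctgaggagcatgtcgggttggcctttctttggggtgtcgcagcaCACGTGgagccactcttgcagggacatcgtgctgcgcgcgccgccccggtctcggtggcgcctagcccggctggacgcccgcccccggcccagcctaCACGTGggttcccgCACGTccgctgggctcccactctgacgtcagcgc
Pgk1: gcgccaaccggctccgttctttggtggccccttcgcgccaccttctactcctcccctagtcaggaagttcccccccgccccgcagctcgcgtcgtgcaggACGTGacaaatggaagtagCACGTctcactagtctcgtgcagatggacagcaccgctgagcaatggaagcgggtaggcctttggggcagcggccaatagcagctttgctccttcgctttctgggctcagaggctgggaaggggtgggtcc

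The Fbp1 window held 0 matches to ACGTG or GCGTG, while that of Fbp2 held an E-box whose letters read as the core on both strands, counted as 2 matches. The Ldha window shown held 5 matches to ACGTG, but 2 E-boxes in it were each counted on both strands in the same way. The Pgk1 window held 2 matches and no E-box. RefSeq gives Ldha another start, and its window, chr7:46846832-46847081, held 0 matches to ACGTG and 1 to GCGTG, so the window shown is the one chosen for its matches. RefSeq's table had promoters for 33 of the 34 genes, 44 windows in all, and 34 of these windows, or 77.3%, held ACGTG or GCGTG, against 38.6% of all 32851 windows of that length. ACGTG by itself was in 40.9% of the member windows and 16.6% of all, and the E-box in 18.2% and 6.02%. Member windows were richer in G and C, with a median of 58.2% against 52.4%. Genes that respond to low oxygen were put on the list by name, so its higher share of this core is no result of these arrays. These matches describe letters only.

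Fbp1 encodes the fructose-1,6-bisphosphatase of liver and kidney, which turns fructose-1,6-bisphosphate back into fructose-6-phosphate. Its log2 level was 7.46, 7.02 and 7.15 on the WT arrays and 9.03, 9.45 and 9.05 on the knockout arrays. All 3 knockout arrays lay above all 3 WT arrays, and the gap between the groups was wider than the range within either. The means were 7.21 ± 0.23 in WT and 9.18 ± 0.24 in the knockout (SD, n = 3 each). The log2 difference was 1.96 (SE 0.16, 95% interval 1.60 to 2.33, limma adjusted p = 0.00672), and an exact permutation test, two-sided, gave p = 0.1, its lowest possible value with 3 arrays in each group. It ranked number 3 among all genes both by the size of the rise and by p. With 1 array left out the difference lay between 1.83 and 2.09. The call was lost without knockout replicate 1 (adjusted p = 0.0606) and when all probe sets, including those without a gene symbol, were tested together (adjusted p = 0.0634).

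**Figure D1:**
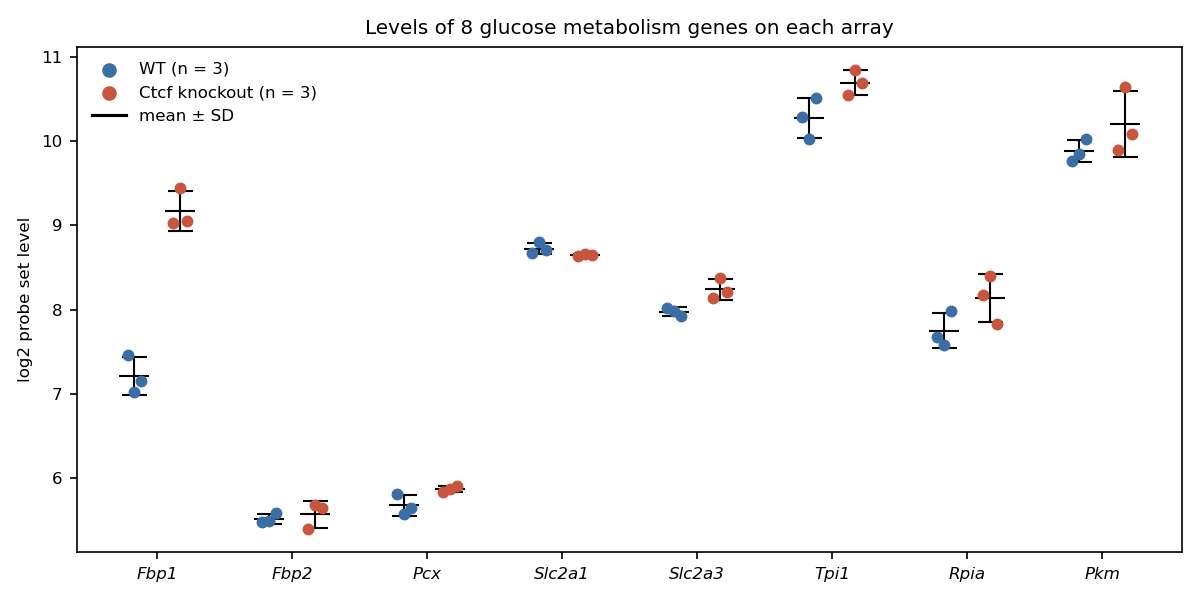
Log2 probe set levels (vertical axis) of 8 glucose genes on each array, WT in blue and Ctcf knockout in red, with the mean and SD of 3 arrays per group in black. Fbp1 is the gene whose groups lie far apart, at 7.02 to 7.46 in WT and 9.03 to 9.45 in the knockout; heights are not comparable between genes.

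The other gluconeogenic genes had positive differences of at most 0.20, and none passed the test. Fbp2, the muscle form of the same enzyme, stood at 5.47, 5.48 and 5.58 in WT and 5.39, 5.68 and 5.64 in the knockout. The Fbp2 groups overlapped, and the difference of 0.05 (SE 0.12) had an interval from -0.21 to 0.32, which lies below that of Fbp1. Fbp2 is dim, under the median of all genes' means of 6.29, where the summary of probe sets compresses differences. Pcx, pyruvate carboxylase, which makes oxaloacetate from pyruvate, stood at 5.81, 5.57 and 5.64 in WT and 5.84, 5.87 and 5.91 in the knockout. Those groups did not overlap, by a gap of 0.026, and the difference was 0.20 (SE 0.11, limma adjusted p = 0.702).

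Pck1 and Pck2 encode the cytosolic and the mitochondrial phosphoenolpyruvate carboxykinase. Pck1 stood at 6.20, 6.41 and 6.03 in WT and 6.36, 6.27 and 6.31 in the knockout, a difference of 0.10 (SE 0.12). Pck2 stood at 8.51, 8.60 and 8.67 in WT and 8.55, 8.81 and 8.65 in the knockout, a difference of 0.07 (SE 0.11). The groups of both overlapped. G6pc3, a widely expressed glucose-6-phosphatase needed by neutrophils, differed by 0.14 (SE 0.12). G6pc and G6pc2, the liver and islet forms of that enzyme, each differed by 0.09.

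Fbp1 also lay outside the range of its neighbours on the chromosome. Among the 5 measured genes on each side in RefSeq gene order none passed the limma test, and 1, Platr25, had an unadjusted p under 0.05. Fbp2 lies next to it on one side and Aopep, an aminopeptidase gene, on the other, with a difference of -0.13 (SE 0.11). Beyond Aopep, Fancc, a gene of the Fanconi anaemia repair pathway, differed by 0.09 and Ptch1, the Hedgehog receptor, by 0.05. The farthest from 0 of the 10 was the non-coding RNA Platr25, with means of 5.49 (WT) and 5.99 (knockout) and separate groups (log2 0.50, SE 0.16, limma adjusted p = 0.489).

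**Figure D2:**
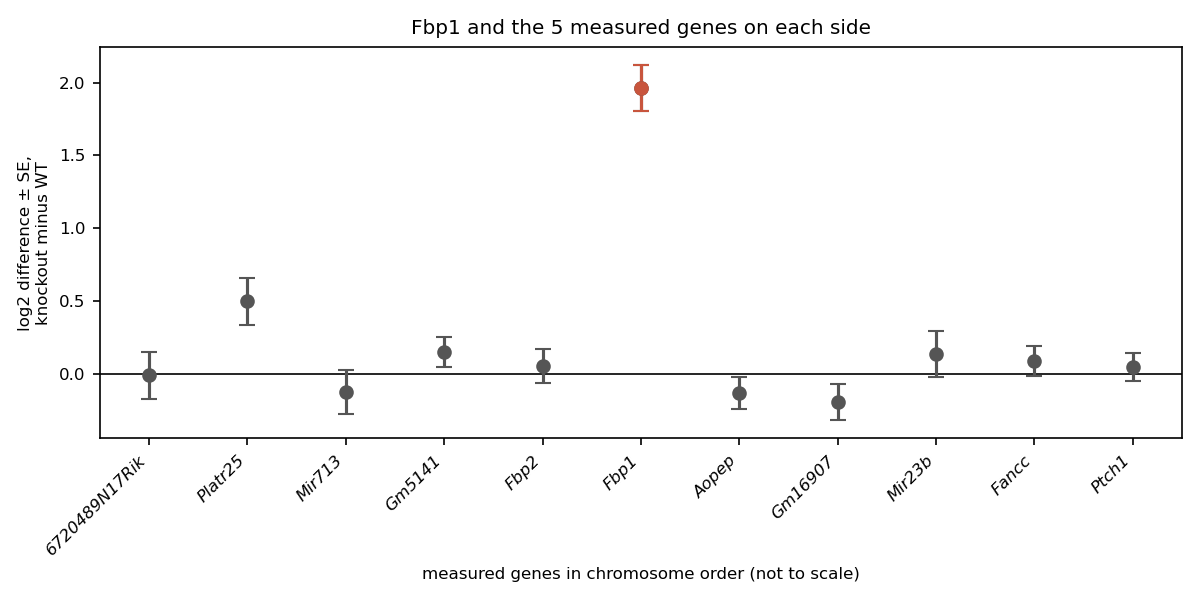
Log2 difference, knockout minus WT, with its SE from the limma fit (vertical axis) for Fbp1, in red, and the 5 measured genes on each side of it in chromosome order (horizontal axis, not to scale). Fbp1 stands at 1.96 and the neighbours between -0.20 and 0.50.

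Glucose enters blood cells through facilitative transporters. Slc2a1 encodes GLUT1 and stood at 8.67, 8.80 and 8.71 in WT and 8.63, 8.66 and 8.65 in the knockout. Its groups did not overlap, by a margin of 0.0057 on the log2 scale, and its difference of -0.08 (SE 0.10, limma adjusted p = 0.904) did not pass. Slc2a3 encodes GLUT3, a high-affinity transporter, and stood at 8.02, 7.98 and 7.92 in WT and 8.14, 8.38 and 8.21 in the knockout. All 3 knockout arrays lay above all 3 WT arrays, and the difference of 0.27 (SE 0.11) had an unadjusted p of 0.0358 and a limma adjusted p of 0.584. A dimmer probe set of Slc2a1 differed by 0.12 (SE 0.11), the opposite sign.

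Hexokinases trap glucose by phosphorylation. Hk1, the widely expressed form, stood at 8.10, 8.16 and 8.41 in WT and 8.35, 8.55 and 8.55 in the knockout, with a difference of 0.26 (SE 0.12). Hk2, the inducible form, stood at 7.15, 7.31 and 7.38 in WT and 7.31, 7.56 and 7.36 in the knockout, with a difference of 0.13 (SE 0.12). Hk3, the form known from myeloid cells, stood at 7.76, 7.87 and 8.03 in WT and 7.58, 7.91 and 7.68 in the knockout, with a difference of -0.16 (SE 0.13). The groups of all 3 overlapped, and their limma adjusted p-values were 0.636, 0.853 and 0.818.

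Phosphofructokinase catalyses the committed step that fructose-1,6-bisphosphatase opposes, and its 3 genes varied more among the knockout arrays than between the groups. Pfkl, the liver-type subunit, stood at 7.89, 7.93 and 8.24 in WT and 7.67, 8.55 and 8.23 in the knockout. Pfkm, the muscle-type subunit, stood at 6.47, 6.80 and 6.75 in WT and 6.23, 7.02 and 6.73 in the knockout. Pfkp, the platelet-type subunit, stood at 7.50, 7.72 and 7.81 in WT and 7.60, 7.95 and 7.61 in the knockout. For each of them knockout replicate 2 was the highest of the 6 arrays, and for Pfkl and Pfkm knockout replicate 1 was the lowest. Their differences were 0.13 (SE 0.21), -0.01 (SE 0.20) and 0.04 (SE 0.14). The interval of Pfkl, from -0.35 to 0.62, leaves a change of either sign possible. Pfkfb3 and Pfkfb4, the bifunctional enzymes that set the level of the activator fructose-2,6-bisphosphate, differed by -0.08 (SE 0.11) and 0.08 (SE 0.15), and Tigar, which breaks that activator down, by 0.12 (SE 0.10).

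The next enzymes split the sugar. Aldoc, the brain-type aldolase, stood at 6.96, 6.95 and 6.83 in WT and 6.58, 7.07 and 6.94 in the knockout, a difference of -0.05 (SE 0.14) with overlapping groups. Tpi1, triose phosphate isomerase, stood at 10.29, 10.03 and 10.51 in WT and 10.55, 10.85 and 10.69 in the knockout. Its groups did not overlap, but WT replicate 3 and knockout replicate 1 were only 0.043 apart. After Fbp1 it had the largest difference of the glucose genes, 0.42 (SE 0.15, 95% interval 0.09 to 0.75, unadjusted p = 0.0188, limma adjusted p = 0.527). Over all alternatives it lay between 0.30 and 0.54.

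The enzymes of lower glycolysis, which earn its ATP, were on the positive side apart from Eno2. Pgk1, phosphoglycerate kinase, had a difference of 0.35 (SE 0.16, limma adjusted p = 0.617) and stood at 10.57, 10.25 and 10.82 in WT and 10.81, 11.04 and 10.85 in the knockout. Pkm, pyruvate kinase, differed by 0.32 (SE 0.19) and stood at 9.77, 9.85 and 10.03 in WT and 9.89, 10.64 and 10.08 in the knockout. In both, WT replicate 3 lay above knockout replicate 1, and in Pkm knockout replicate 2 was far above the other arrays. Gapdh, often taken as a reference gene, differed by 0.12 (SE 0.10), Pgam1, phosphoglycerate mutase, by 0.21 (SE 0.17), and Eno2, the neuronal enolase, by -0.21 (SE 0.15). Gapdh and Pgam1 have near-identical pseudogene copies that a probe set may not separate, and their other probe sets differed by 0.12 and -0.08 for Gapdh and 0.20 for Pgam1. Eno2 stood at 5.99, 6.39 and 6.01 in WT and 5.89, 5.77 and 6.11 in the knockout. Eno2 and Tpi1 lie with 2 measured genes between them on chromosome 6, and their differences had opposite signs. Without knockout replicate 2 Pkm differed by 0.11. Without WT replicate 2 Pgk1 differed by 0.20, Pgam1 by 0.02 and Eno2 by -0.08.

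At the end of the pathway lactate dehydrogenase turns pyruvate into lactate, and pyruvate dehydrogenase kinases shut the mitochondrial entry. Ldha, the subunit favoured in glycolytic cells, stood at 7.33, 7.34 and 7.59 in WT and 7.35, 7.68 and 7.56 in the knockout. Ldhb, the other subunit, stood at 7.31, 6.99 and 7.38 in WT and 7.06, 7.33 and 7.23 in the knockout. The groups of both overlapped, with differences of 0.11 (SE 0.13) and -0.02 (SE 0.14). Pdk1 differed by -0.07 (SE 0.10, 95% interval -0.31 to 0.17) and Pdk3 by 0.11 (SE 0.12). Among the lactate carriers of the plasma membrane Slc16a1 differed by 0.36 (SE 0.19) and Slc16a3 by 0.13 (SE 0.12), both with overlapping groups. Slc16a7 differed by 0.25 (SE 0.11) with separate groups. None of these carriers passed.

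In the pentose phosphate pathway the value farthest from 0 was that of Rpia, ribose-5-phosphate isomerase, which makes the sugar of nucleotides. Rpia stood at 7.68, 7.58 and 7.98 in WT and 8.18, 8.40 and 7.83 in the knockout. Knockout replicate 3 lay below WT replicate 3, so the groups overlapped, and the difference of 0.39 (SE 0.17) had an unadjusted p of 0.0466 and a limma adjusted p of 0.607. In the NADPH-forming arm Pgd, phosphogluconate dehydrogenase, stood at 8.02, 8.15 and 8.54 in WT and 7.96, 8.84 and 8.30 in the knockout, and differed by 0.13 (SE 0.22). Pgls, which acts between the dehydrogenases of that arm, differed by -0.03 (SE 0.13), and Taldo1, the transaldolase of the non-oxidative arm, by 0.15 (SE 0.14). Of 9 further measured genes of the pathway and of ribose phosphate use, 7 were on the positive side and none passed, with Prps2, a synthetase of the nucleotide precursor PRPP, at 0.28 (SE 0.14).

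The genes linked to low oxygen showed no common direction. Hif1a, the oxygen-regulated subunit of hypoxia-inducible factor, differed by 0.13 (SE 0.12). Egln3, a prolyl hydroxylase that marks this factor for destruction, differed by 0.14 (SE 0.13), and Bnip3, a mitophagy receptor and target of the factor, by -0.09 (SE 0.10). A dimmer probe set of Hif1a differed by -0.14 (SE 0.11), the opposite sign. Hif1a is controlled mainly at the protein level, which an array does not measure. Of 18 further hypoxia-linked genes 10 were positive and 8 negative, with a median of 0.04 that took either sign with 1 array left out, and none passed. At an unadjusted p under 0.05 were Ndrg1, a stress-responsive gene, at 0.50 (SE 0.13, limma adjusted p = 0.381), and Adm, which encodes adrenomedullin, at -0.28 (SE 0.11, limma adjusted p = 0.578). Adm is dim, with means of 4.58 in WT and 4.30 in the knockout, under the median of all genes' means of 6.29. Vegfa, a classical target, differed by -0.28 (SE 0.22).

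**Figure D3:**
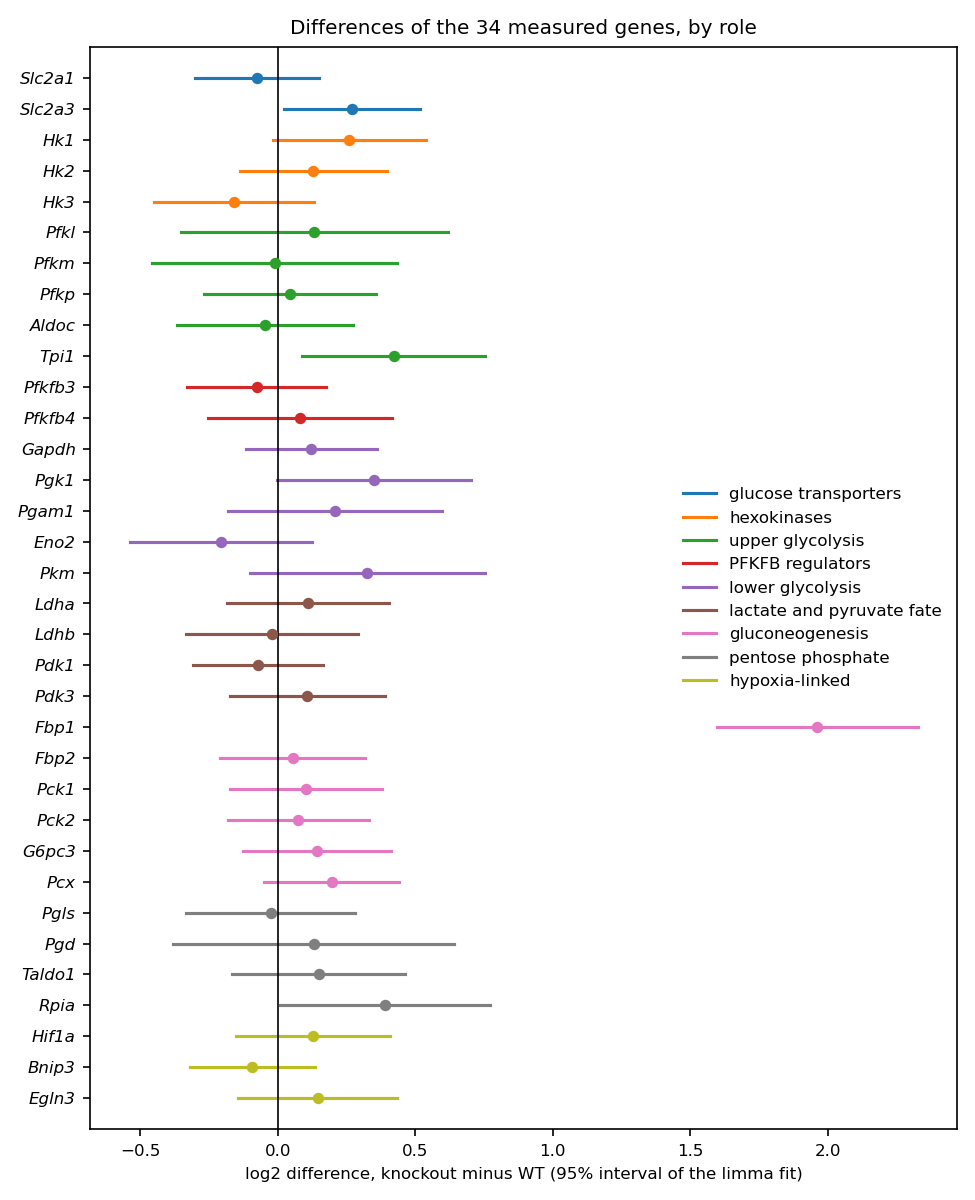
Log2 difference, knockout minus WT, of each of the 34 measured glucose genes (points) with the 95% interval of the limma fit (lines), coloured by role. Fbp1 stands at 1.96 with an interval from 1.60 to 2.33, and the other 33 points lie between -0.21 and 0.42.

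As a set, 24 of the 34 glucose genes had a positive difference, against 54.7% of all genes, and the median difference was 0.11, against 0.02 over all genes. Centring the arrays on the brighter genes moved these medians to 0.06 and -0.04, with 22 of the 34 positive. Such centring shifts every gene's difference by the same amount, so it cannot change the distance between the medians. Both medians fell, so the brighter genes, those above the median of all genes' means, lay higher in the knockout. All glucose genes but Eno2, Fbp2, Pck1 and Pcx are among these brighter genes. The 0.02 over all genes is thus a low background for the set. Without Fbp1 the median of the other 33 was also 0.11. At an unadjusted p under 0.05 by limma were 4 of the 34, all higher (Fbp1, Tpi1, Slc2a3 and Rpia), against 8.11% of all genes in either direction, 5.03% higher and 3.08% lower. Groups did not overlap for 5 of the 34, 4 higher and 1 lower, against 13.3% of all genes (7.96% higher and 5.32% lower), a share close to the background. The median difference was 0.06 without WT replicate 1 and 0.03 without knockout replicate 2. The count of 4 became 2 without WT replicate 1, 1 without WT replicate 2 or without knockout replicate 2, and 6 without knockout replicate 1. It was 2 when arrays were centred on the brighter genes. Most single differences moved when 1 array was left out. Of the 33 genes beside Fbp1, 28 moved by over 1.5 times or changed sign without 1 of the arrays, and the other 5 were Slc2a3, Hk1, Tpi1, Pcx and Bnip3. Without knockout replicate 2 the difference was 0.05 for Hk2, 0.03 for Ldha, 0.0040 for Pck2, 0.07 for G6pc3, 0.03 for Taldo1 and 0.26 for Rpia. Without WT replicate 1 it was 0.03 for Hif1a and 0.08 for Gapdh, without WT replicate 2 -0.04 for Slc2a1 and 0.02 for Pdk3, and without WT replicate 3 it was 0.01 for Pck1. Without knockout replicate 1 it was -0.09 for Hk3, -0.03 for Pfkfb3, -0.02 for Pdk1 and 0.06 for Egln3.

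The knockout arrays differed among themselves in these genes. Knockout replicate 2 was the highest of the 6 arrays for 19 of the 34 glucose genes, against 20.4% of all genes. Among the 3 knockout arrays it was the highest for 24 of the 34, and knockout replicate 1 the lowest for 24 of the 34, against 33% and 34.5% of all genes. The median deviation of the 34 genes from their means was -0.10, -0.11 and 0.04 on the WT arrays and -0.03, 0.19 and 0.04 on the knockout arrays. WT replicate 3 thus lay above knockout replicates 1 and 3. In Fbp1 too knockout replicate 2 was the highest and knockout replicate 1 the lowest of the knockout arrays.

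**Figure D4:**
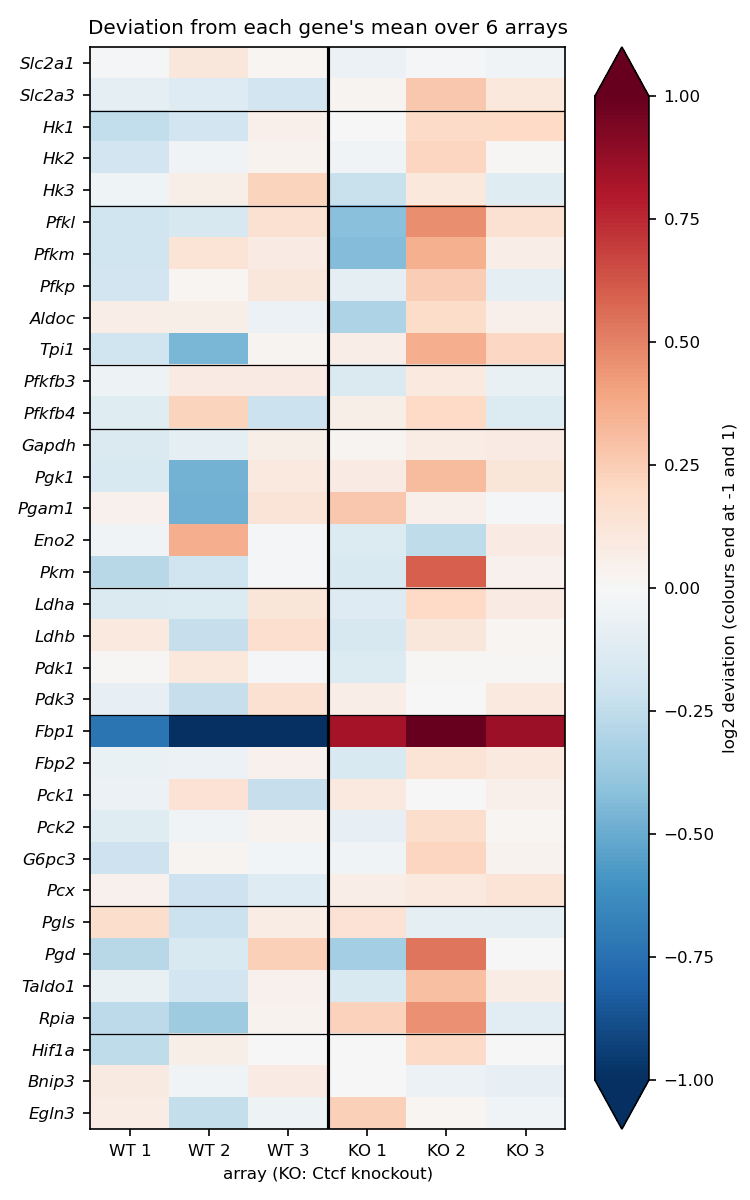
Deviation of each glucose gene (rows, by role) from its own mean over the 6 arrays (columns), on the log2 scale from blue (below the mean) to red (above); colours end at -1 and 1. Fbp1 is the row with the widest gap between the groups, and knockout replicate 2 is the reddest column, highest for 19 of 34 genes.

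The routes that take up the products of glycolysis were mostly on the positive side, with small differences. Pyruvate dehydrogenase, its regulators and the pyruvate carrier were positive for all 10 measured genes (median 0.19), none of which passed. At an unadjusted p under 0.05 were Pdp1, the phosphatase that activates the complex (0.39, SE 0.16, limma adjusted p = 0.578), and Pdhx, its E3-binding subunit (0.27, SE 0.11, limma adjusted p = 0.592). Citric acid cycle genes were positive for 20 of 21 (median 0.21), and none passed. Sdhd, a membrane anchor of succinate dehydrogenase, differed by 0.43 (SE 0.11, limma adjusted p = 0.350), and Idh3g, a subunit of isocitrate dehydrogenase, by 0.27 (SE 0.11, limma adjusted p = 0.578). The pyruvate dehydrogenase median was 0.10 without WT replicate 1, and the citric acid cycle median 0.12 without knockout replicate 2.

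Glycogen genes were positive for 13 of 17, and none passed. Their median was 0.10, or 0.07 without knockout replicate 1. Gys1, the glycogen synthase of most tissues outside the liver, stood farthest from 0, with means of 7.45 (WT) and 7.99 (knockout) and separate groups (0.53, SE 0.14, limma adjusted p = 0.356). Pygl, a glycogen phosphorylase, differed by 0.32 (SE 0.12) and Gbe1, the branching enzyme, by -0.25 (SE 0.11), both at an unadjusted p under 0.05. Of 26 other genes of glycolysis and gluconeogenesis, most of them isoenzymes of other tissues, 16 were positive (median 0.04, and 0.02 to 0.08 with 1 array left out) and none reached an unadjusted p of 0.05. Both measured genes of fructose breakdown were on the positive side, Khk, ketohexokinase, at 0.25 (SE 0.11) and Tkfc, triokinase, at 0.33 (SE 0.12, limma adjusted p = 0.560).

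Marker genes of other cell types and genes of cell division and respiration were read on the same arrays. Of 12 such lists, the LSK markers included, that of granulocyte and myeloid progenitors had median deviations that did not overlap between the groups. Those of the other lists among the 12 overlapped. Outside these 12, the lists of pyruvate dehydrogenase, glycogen, fructose breakdown and the gluconeogenic glucose genes were separate too. Among single genes 13.3% of all had groups that did not overlap, so separation by itself is weak evidence for any of these lists. For pyruvate dehydrogenase the median deviations were -0.21 to -0.03 in WT and 0.02 to 0.16 in the knockout. Among 10 marker genes for granulocyte and myeloid progenitors, 8 had a positive value (median 0.65), none passed the limma test and 6 had an unadjusted p under 0.05. The list's median deviation was -0.24, -0.48 and -0.17 on the WT arrays and 0.34, 0.59 and 0.11 on the knockout arrays. Its summed linear level was 8632 to 12030 in WT and 16240 to 21360 in the knockout. The list's largest rise was that of Ms4a3, at 1.40 (SE 0.33, limma adjusted p = 0.296). Elane, neutrophil elastase, followed at 1.21 (SE 0.19, limma adjusted p = 0.104). Csf3r, at -0.15 (SE 0.14), and Gfi1, at -0.0064 (SE 0.10), were negative, and Csf1r differed by 0.02 (SE 0.17).

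The mast cell and basophil list held the one marker gene that passed. Hdc, the histamine-forming enzyme, stood at 6.20, 5.76 and 6.45 in WT and 8.22, 9.06 and 8.09 in the knockout, the largest rise of all genes (2.32, SE 0.26, limma adjusted p = 0.0309). With 1 array left out its difference was at least 2.02, and it passed only without knockout replicate 2 (adjusted p = 0.0402 there, 0.0564 to 0.171 otherwise). Mcpt8, a basophil protease, differed by 1.11 (SE 0.16, limma adjusted p = 0.0708), also with separate groups. The groups of the list's other genes overlapped. Of these Cpa3 differed by 0.45 (SE 0.28), Fcer1a by 0.38 (SE 0.20) and Ms4a2 by 0.14 (SE 0.16). Prss34, at -0.21 (SE 0.14), and Gzmb, at -0.01 (SE 0.16), were negative. Of the list's 7 genes 5 were positive, with a median of 0.38 (0.18 without WT replicate 2 and 0.18 without knockout replicate 1), and its summed level was 833.2 to 1264 in WT and 1318 to 2121 in the knockout. Summed levels were also separate for T and NK cells (1494 to 2158 in WT and 2295 to 3049 in the knockout) and for megakaryocytes and platelets (1161 to 1249 and 1326 to 1461). In those lists 3 of 9 and 4 of 6 genes were positive, and none passed. A linear sum weighs bright genes most. The brightest T and NK gene, Nkg7, had means of 10.24 in WT and 10.92 in the knockout (log2 0.68, SE 0.20, limma adjusted p = 0.429). The median difference of the T and NK list was -0.07 and took either sign with 1 array left out.

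Markers of B and plasma cells were negative for all 10 measured (median -0.69, or -0.44 without knockout replicate 3), with summed levels of 18070 to 28820 in WT and 10950 to 19280 in the knockout. For mature neutrophils 8 of 11 were negative, with a median of -0.52, with left-out values of -0.08 (WT replicate 1), -1.05 (WT replicate 2) and -0.22 (knockout replicate 3), and summed levels of 1414 to 5713 in WT and 1016 to 1749 in the knockout. G2/M genes were positive for all 19 measured (median 0.55, or 0.28 without WT replicate 2), with summed levels of 7308 to 15060 in WT and 13500 to 17590 in the knockout. Of 21 oxidative phosphorylation genes 19 were positive, with a median of 0.24 (0.12 without knockout replicate 2) and summed levels of 12320 to 14870 in WT and 13680 to 18310 in the knockout, and on these arrays too knockout replicate 2 was the highest. For the B cell, mature neutrophil, G2/M and oxidative phosphorylation lists both the summed levels and the median deviations of the groups overlapped, and no gene of them passed. At an unadjusted p under 0.05 by limma were 6 of the B cell, 5 of the neutrophil, 10 of the G2/M and 1 of the oxidative phosphorylation genes. The share over all genes was 8.11%. In the neutrophil list Ngp lay farthest from 0, at -2.44 (SE 0.52, limma adjusted p = 0.241) with separate groups. The summed levels of monocyte, erythroid and stromal markers overlapped too. The part of these lists in the difference of Fbp1 or of the other glucose genes was not tested.

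**Figure D5:**
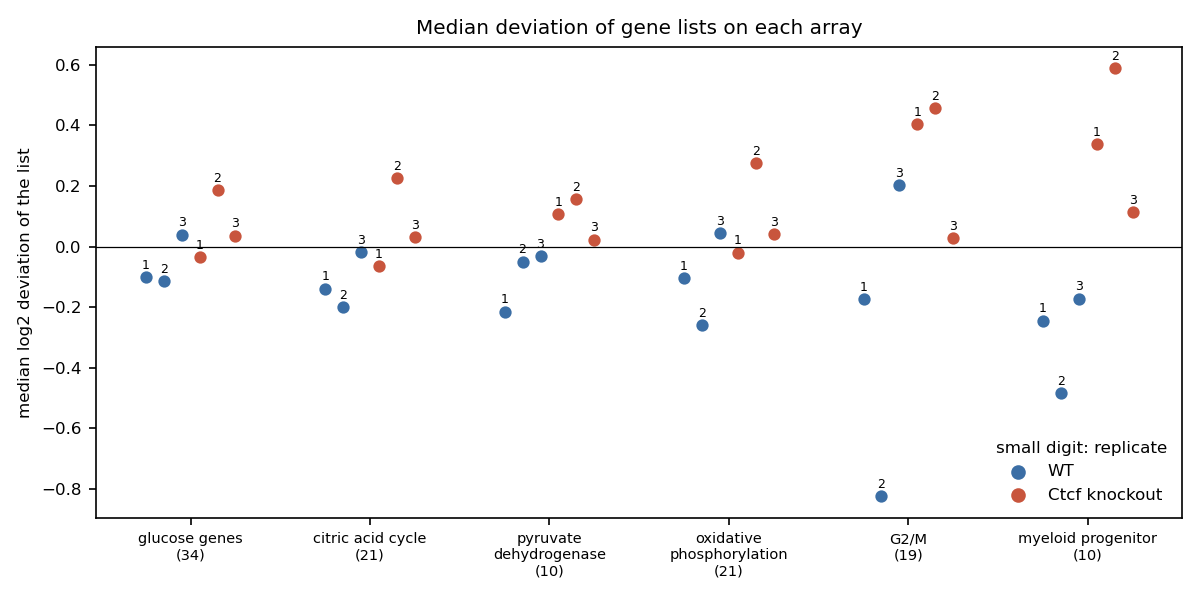
Median log2 deviation (vertical axis) of 6 gene lists on each array, WT in blue and Ctcf knockout in red, with the replicate number above each point and the number of measured genes below each name. The groups overlap for the glucose genes, where knockout replicate 2 is highest at 0.19. They do not overlap for the pyruvate dehydrogenase genes or the myeloid progenitor markers.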

How the data were processed

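The authors deposited log2 values per probe set, made with RMA in oligo (versions not given), per the submitters' processing notes. RMA subtracts background, makes the arrays' distributions equal and pools a set's probes, so low signals show too small a difference. Of 41345 probe sets 23521 had 1 gene symbol in GEO's platform annotation, 1814 several and 16010 none here; only the former entered the gene table. Each of 22180 genes was read at its brightest probe set by the mean of all 6 arrays. Knockout was compared with WT, 3 arrays each, by limma 3.58.1 in R 4.3.3 (lmFit and eBayes, defaults, group as the only term), adjusted by Benjamini-Hochberg over all genes, with no filter on low values. The fit was checked on simulated data. Promoter windows came from RefSeq (GRCm38.p6). Named genes are all measured members, members of the pathway lists at an unadjusted p under 0.05, and the neighbours of called members; further list genes are examples chosen after their values were seen. Members and lists were chosen with earlier results of these data known.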

Additional observations from a re-analysis of the deposited data

How the results depend on the processing

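Fbp1 kept its direction in all 14 fits and passed in 12, with differences of 1.83 to 2.09 when 1 array was left out (0 to 1 glucose genes called, 0 to 8 genes in all). With all probe sets tested, its 1.96 missed the threshold, 0 glucose genes passed and 3 features in all. Over all genes 25 passed with trend and robust settings, 7 with the replicate block and 26 at an adjusted p under 0.1. At an unadjusted p under 0.05 there were 1799, of which 4 were glucose genes. With the replicate block Fbp1 still passed (limma adjusted p = 0.0392). Deviations of WT replicates 1, 2 and 3 correlated at 0.29, 0.02 and -0.14 with those of the same-numbered knockout array. Their highest correlations with a knockout array of another number were -0.14, 0.25 and 0.16. With 3 arrays a group these values cannot decide whether the numbers pair the arrays. No other glucose gene passed in any alternative, 22 of the 34 kept their sign wherever they were tested and 12 changed it at least once; the filter on dim genes leaves out Eno2, Fbp2, Pck1 and Pcx. Outside the left-out arrays the sign changes were Pfkm (0.027 with array weights, 0.0044 with further quantile normalization), Pfkp (-0.012) and Fbp2 (-0.0014) with centring on the brighter genes, and Slc2a1 (0.020), Pdk1 (0.014) and Hif1a (-0.0083) with probe sets averaged per gene; the cause was not tested. With 1 array left out, Pfkl lay between -0.066 and 0.37, Pfkm between -0.19 and 0.20, Pfkp between -0.070 and 0.11, Aldoc between -0.15 and 0.094, Pfkfb4 between -0.0076 and 0.21, Ldhb between -0.14 and 0.056, Fbp2 between -0.00075 and 0.14, Pgls between -0.14 and 0.057 and Pgd between -0.10 and 0.33. The glucose gene median lay between 0.03 and 0.16 with 1 array left out. It was 0.06 with centring on the brighter genes. Left-out values of the lists and of Hdc were added after the data were seen.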
